A study of Mus musculus with 18 samples.

Results

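The 8 genes described here supply the left ventricle with fatty acids: Lpl, Gpihbp1, Cd36, Slc27a1, Fabp3, Fabp4, Acsl1 and Fabp3-ps1, a pseudogene copy of Fabp3. They were chosen by symbol from the Ensembl identifiers of the deposited tables, and all 8 were found among 10597 listed genes. Left ventricles came from male C57BL/6 mice aged 20 weeks under normal housing and without treatment, 5 of them knockout for mORF4/NBDY (hearts 6 to 10) and 4 wild type (hearts 1 to 4). The NBDY microprotein is known from human cells as a partner of the mRNA decapping complex. The sources used here do not say how its gene was disrupted. Each ventricle gave 1 poly-A RNA library and 1 library of ribosome footprints, the mRNA fragments that translating ribosomes protect.

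The working heart burns mostly fatty acids. Lipoprotein lipase, encoded by Lpl, is made largely by cardiomyocytes and is carried by GPIHBP1 to the luminal face of capillary endothelium, where it frees fatty acids from circulating triglyceride. CD36 and the transport protein FATP1, encoded by Slc27a1, bring the fatty acids across cell membranes, the binding proteins FABP4 (in capillary endothelium, adipocytes and macrophages) and FABP3 (in cardiomyocytes) carry them in the cytosol, and ACSL1 activates them to acyl-CoA. Many of these genes are known targets of the PPAR nuclear receptors.

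All values below are normalized reads, gene counts that the authors divided by 1 size factor per library. Values of an assay are comparable between hearts, but not between genes, because no transcript lengths were at hand. Taking the smallest step in each library as 1 read, RNA libraries held 15.8 to 20.2 M reads in knockout and 11.2 to 12.4 M in wild type, and footprint libraries 22.9 to 40.8 M in knockout and 6.67 to 36.7 M in wild type (M, mega). On that reading the shallowest RNA library of the knockout hearts exceeded the deepest of the wild-type hearts; the labels name no batch, and a batch of RNA libraries could not be told apart from genotype. The targeted gene Nbdy had 10.9 to 19.0 normalized footprint reads in knockout hearts and 107 to 355 in wild-type hearts, and 61.8 to 90.0 against 100.1 to 116 in RNA. Cardiomyocyte markers were abundant in every library, and of 8 adipocyte markers 1 was listed, Cfd, while Adipoq, Plin1, Cidec and 4 others were not among the listed genes.

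The transcripts of 5 of the 8 genes differed between genotypes, in both directions, whereas ribosome footprints passed the test for 0 of 8, with 0.02% of all genes called. Slc27a1 and Lpl RNA was higher in knockout hearts, and Fabp3, Fabp3-ps1 and Gpihbp1 RNA was lower. The falls of Fabp3 and its pseudogene cannot be taken as separate, because the 2 share sequence. With the pair summed as 1 row, 4 of 7 passed in RNA. The fall did not hold for Fabp3 with Fabp3-ps1 subtracted. Cd36, Fabp4 and Acsl1 RNA did not pass. In RNA 49.4% of all 10580 genes tested passed (limma, Benjamini-Hochberg adjusted p below 0.05), with 24.3% higher and 25.1% lower in knockout, so 5 of 8, or 62.5%, lies near the background. All hearts of one genotype lay beyond all hearts of the other for 40.7% of the genes compared by RNA, 1.6% by footprints and 18.3% by efficiency, the background for each such separation given below. In a bulk ventricle, fewer cells of a type and less RNA per cell cannot be told apart.

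**Figure D1:**
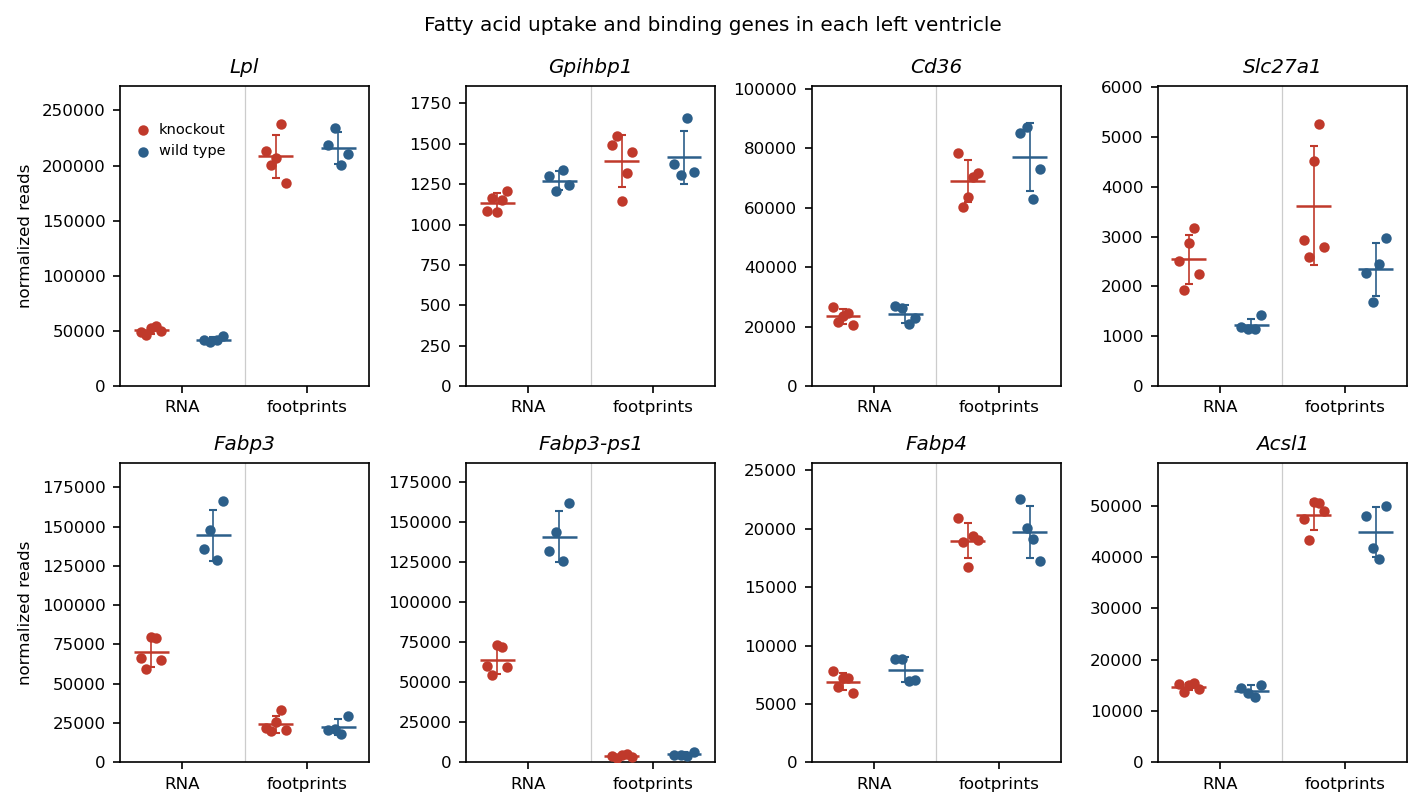
Normalized reads of each gene in RNA (left of each panel) and in footprints (right), with 1 point per heart, knockout in red and wild type in blue, a line at the group mean and bars of 1 SD (n = 5 knockout, n = 4 wild type). Fabp3 and Fabp3-ps1 RNA lies far lower in all 5 knockout hearts and Slc27a1 RNA higher, while the footprint points of the 2 genotypes overlap for all 8 genes, as for all but 1.6% of the genes compared.

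Lpl, the lipase itself, had 49075, 46358, 52616, 54330 and 49739 normalized RNA reads in knockout hearts 6 to 10, against 41905, 39513, 41342 and 45330 in wild-type hearts 1 to 4. The lowest knockout heart lay just above the highest wild-type heart. The difference on the log2 scale was 0.26 ± 0.06 (SE; adjusted p = 0.00499 by limma), and 0.45 with quantile normalization. Its footprints numbered 184356 to 237527 in knockout hearts, with a median of 207068, and 200193 to 233884 in wild-type hearts. They overlapped throughout, with a log2 fold change of -0.05 ± 0.12 (SE; adjusted p = 0.944 by limma) and a 95% interval of -0.31 to 0.21.

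Gpihbp1, the endothelial anchor and carrier of the lipase, had 1081, 1166, 1077, 1152 and 1206 normalized RNA reads in knockout hearts, against 1299, 1208, 1338 and 1242 in wild-type hearts. The genotypes all but touched, at knockout heart 10 and wild-type heart 2, and differed on the log2 scale by -0.16 ± 0.05 (SE; adjusted p = 0.0282 by limma). It did not pass when wild-type heart 1 or 3 or knockout heart 6 or 8 was left out (adjusted p = 0.0607, 0.0848, 0.0614 and 0.0664) and with quantile normalization, which brought the difference to -0.07 (adjusted p = 0.284). Footprints of Gpihbp1 were 1146 to 1549 in knockout hearts and 1305 to 1660 in wild-type hearts, at a log2 fold change of -0.03 ± 0.13 (SE; adjusted p = 0.977 by limma). Beside this, the summed RNA of 12 endothelial markers was 21883 to 24065 normalized reads in knockout hearts and 23518 to 25647 in wild-type hearts. Of the 12, 4 were higher and 5 lower, where 24.3% of all genes were higher and 25.1% lower. The part of these markers in the Gpihbp1 difference was not tested.

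Cd36, the main fatty acid translocase of heart muscle and capillaries, did not differ detectably. Its RNA was 20538 to 26713 normalized reads in knockout hearts, with a median of 23660, and 20799 to 27060 in wild-type hearts, so that the ranges nearly coincided. In log2 terms the difference was -0.05 ± 0.09 (SE; adjusted p = 0.696 by limma), with a 95% interval of -0.26 to 0.16. Footprints were 60377 to 78591 in knockout hearts and 62928 to 87195 in wild-type hearts. Their log2 fold change was -0.15 ± 0.13 (SE; adjusted p = 0.854 by limma), with a 95% interval of -0.42 to 0.11.

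Slc27a1 (chromosome 8, 71568728 to 71587307, GRCm38) showed the largest RNA rise of the 8 genes. FATP1, its product, joins membrane transport of long-chain fatty acids to their activation. Its RNA was 2503, 1928, 2870, 3165 and 2253 normalized reads in knockout hearts, against 1194, 1137, 1153 and 1416 in wild-type hearts. All knockout hearts lay above all wild-type hearts, and hearts 8 and 9 were highest; such a separation is shared by 40.7% of genes in RNA. On the log2 scale the rise was 1.04 ± 0.13 (SE; adjusted p = 4.9e-05 by limma). Its footprints were 2934, 2592, 4517, 5272 and 2792 in knockout hearts, against 2278, 1681, 2443 and 2979 in wild-type hearts. Hearts 8 and 9 were again highest, and the other 3 knockout hearts fell within the wild-type range. The footprint log2 fold change of 0.60 ± 0.21 (SE) did not pass (adjusted p = 0.851 by limma), with a 95% interval of 0.16 to 1.03.

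Fabp3 (chromosome 4, 130308738 to 130315463, GRCm38), the heart-type binding protein, showed a large RNA fall without a footprint difference. The deposited RNA values were 66261, 59489, 80036, 78845 and 65204 normalized reads in knockout hearts, against 135646, 147601, 128514 and 165965 in wild-type hearts. Every knockout heart lay far below every wild-type heart, with a ratio of means of 0.484. That is a log2 fold change of -1.05 ± 0.10 (SE; adjusted p = 1.09e-05 by limma). Footprints of Fabp3 were 21646, 20136, 25773, 33250 and 20416 in knockout hearts, against 20872, 21405, 18217 and 29811 in wild-type hearts. These overlapped, with knockout heart 9 and wild-type heart 4 highest. The log2 fold change was 0.10 ± 0.16 (SE; adjusted p = 0.917 by limma), and its 95% interval of -0.24 to 0.44 does not reach the RNA value. The RNA value is uncertain, because Fabp3 shares sequence with its pseudogene and, over 81 bases at its 3′ end, the span of Zcchc17, and the RNA kit does not mark strand. Zcchc17 had only 214 to 278 normalized RNA reads in knockout hearts and 351 to 372 in wild-type hearts.

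The 250 bases before the annotated start of Fabp3 are shown because its transcript values differed so strongly between genotypes. They were taken from RefSeq (GRCm38.p6, plus strand, chr4:130308488-130308737), which listed windows for 4 of the 8 genes. Capitals would mark matches on either strand to AGGTCA repeated after 1 base of any kind (the paired element known to bind PPAR), to the single AGGTCA within it, to TATAAA or to CCAAT. The window held no match to any of them. Among 32851 such windows 0.0335% held the paired element, 14.0% the single AGGTCA, 12.4% TATAAA and 33.8% CCAAT.
Fabp3: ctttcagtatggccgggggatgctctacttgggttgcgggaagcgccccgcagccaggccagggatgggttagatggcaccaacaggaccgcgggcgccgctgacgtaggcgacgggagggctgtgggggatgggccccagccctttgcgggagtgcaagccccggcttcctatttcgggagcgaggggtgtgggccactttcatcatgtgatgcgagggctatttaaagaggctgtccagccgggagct

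Fabp3-ps1 (chromosome 10, 86731753 to 86732428, GRCm38) is annotated as a pseudogene spanning 676 bases, inside the span of Ttc41, a gene not among those listed. Its RNA values followed those of Fabp3 heart by heart, at 60234, 54312, 73266, 72108 and 59279 normalized reads in knockout hearts, against 131977, 143987, 125327 and 162102 in wild-type hearts. The log2 fold change was -1.14 ± 0.11 (SE; adjusted p = 6.37e-06 by limma). Footprints assigned to it were 3969, 2883, 4585, 4991 and 3214 in knockout hearts, against 4729, 4877, 4102 and 6791 in wild-type hearts. The footprint log2 fold change of -0.39 ± 0.17 (SE) did not pass (adjusted p = 0.851 by limma).

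The share that the pseudogene took within the pair differed between genotypes in both assays. In RNA, Fabp3-ps1 amounted to 90.9%, 91.3%, 91.5%, 91.5% and 90.9% of Fabp3 in knockout hearts, against 97.3%, 97.6%, 97.5% and 97.7% in wild-type hearts. In footprints it amounted to 18.3%, 14.3%, 17.8%, 15.0% and 15.7% in knockout hearts, against 22.7%, 22.8%, 22.5% and 22.8% in wild-type hearts. These ratios are formed within a library and do not depend on its size factor. The genotypes did not overlap in either assay, and in footprints the spread was 1.75 percentage points among knockout hearts and 0.126 among wild-type hearts (SD, n = 5 and n = 4).

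Subtracting the pseudogene from Fabp3 turned the RNA difference round. This remainder is a small difference of 2 near-equal RNA rows. Its mean was 6127 normalized RNA reads beside 69967 for Fabp3 in knockout hearts, and 3583 beside 144431 in wild-type hearts. It is computed from the 2 rows above and is no separate observation. The remainder was 6026, 5177, 6770, 6737 and 5925 normalized RNA reads in knockout hearts, against 3669, 3613, 3187 and 3862 in wild-type hearts. All knockout hearts now lay above all wild-type hearts, with a log2 fold change of 0.77 ± 0.08 (SE; adjusted p = 1.9e-05 by limma), whereas the sum of both rows fell by 1.09 (limma adjusted p = 1.06e-05). In footprints the remainder was 17202 to 28259 in knockout hearts and 14115 to 23021 in wild-type hearts, at a log2 fold change of 0.22 ± 0.16 (SE; adjusted p = 0.854 by limma). No source used here says how reads matching both copies were counted. The RNA fall of Fabp3 is therefore stated for the deposited row only. The sum of 2 near-equal rows that both fell had to fall too, so it adds no support. The remainder rose, but as a small part of the Fabp3 row it cannot decide whether Fabp3 RNA fell. The subtraction was chosen after its values were seen, and what sets the share was not tested.

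**Figure D2:**
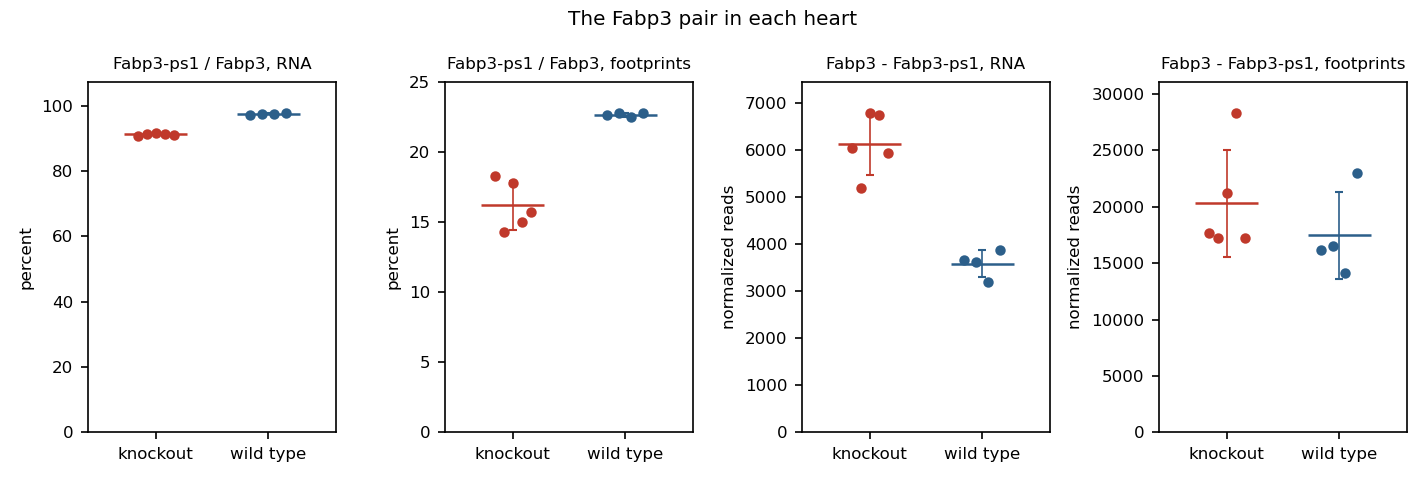
From left to right, Fabp3-ps1 as a percent of Fabp3 in RNA and in footprints, and Fabp3 minus Fabp3-ps1 in normalized reads in RNA and in footprints, with 1 point per heart, a line at the mean and bars of 1 SD (n = 5 knockout in red, n = 4 wild type in blue). The share is lower in knockout hearts in both assays, and the RNA remainder is higher, at 5177 to 6770 against 3187 to 3862.

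Fabp4, the binding protein of capillary endothelium, adipocytes and macrophages, did not pass in any measure. Its RNA was 5909 to 7861 normalized reads in knockout hearts, with a median of 7187, and 6961 to 8870 in wild-type hearts. The ranges overlapped, and the log2 fold change was -0.19 ± 0.10 (SE; adjusted p = 0.129 by limma). Footprints were 16702 to 20922 in knockout hearts and 17187 to 22492 in wild-type hearts, at a log2 fold change of -0.05 ± 0.11 (SE; adjusted p = 0.94 by limma) and a 95% interval of -0.28 to 0.18.

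Acsl1, the main long-chain acyl-CoA synthetase of the heart, differed little between genotypes. Its RNA was 13726 to 15379 normalized reads in knockout hearts and 12639 to 15058 in wild-type hearts, at a log2 fold change of 0.09 ± 0.06 (SE; adjusted p = 0.266 by limma). With quantile normalization this RNA value became 0.17 and passed (adjusted p = 0.0268). Footprints were 43345 to 50618 in knockout hearts and 39635 to 49859 in wild-type hearts, at a log2 fold change of 0.11 ± 0.11 (SE; adjusted p = 0.865 by limma).

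In footprints limma called 0 of the 8 genes, and edgeR and DESeq2 on whole footprint reads and the authors' deposited table also called 0. At an unadjusted p below 0.05 there were 2 of the 8 with limma, Slc27a1 and Fabp3-ps1, and likewise 2 with edgeR and 2 with DESeq2. Of all 9976 genes tested limma called 2, or 0.02%, and 5.06% had an unadjusted p below 0.05. The fewest footprint reads were 378 for Gpihbp1 and 487 for Slc27a1, both in wild-type heart 2, and every other gene had at least 1413 in each heart.

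Translational efficiency, footprint signal divided by RNA signal within each heart, was higher in knockout for Fabp3 and Fabp3-ps1 and passed for no other of the 8 genes in the fit without a term for the heart. Of all 9974 genes tested 14.4% passed, with 7.83% higher and 6.55% lower in knockout. The test reuses the RNA values, so it is no second observation of the RNA differences. Fabp3 had ratios of 0.327, 0.338, 0.322, 0.422 and 0.313 in knockout hearts, against 0.154, 0.145, 0.142 and 0.180 in wild-type hearts. All knockout hearts lay above all wild-type hearts, with a log2 fold change of 1.15 ± 0.21 (SE; adjusted p = 0.00142 by limma). For the remainder of Fabp3 after subtraction the ratio was 2.90 to 4.19 in knockout hearts and 4.40 to 5.96 in wild-type hearts. This was the opposite direction, at -0.56 on the log2 scale (SE 0.20), and did not pass (limma, adjusted p = 0.0766). The pseudogene amounted to 90.9% to 97.7% of Fabp3 in RNA but 14.3% to 22.8% in footprints. The remainder ratio therefore sets most of the Fabp3 footprints against a small part of its RNA. It is not comparable with the Fabp3 efficiency. Fabp3-ps1 had ratios of 0.0531 to 0.0692 in knockout hearts and 0.0327 to 0.0419 in wild-type hearts, at a log2 fold change of 0.76 ± 0.22 (SE; adjusted p = 0.0278 by limma). It did not pass when wild-type heart 1, 2 or 3 or knockout heart 6 was left out (adjusted p = 0.0658, 0.0724, 0.0674 and 0.0625) and with quantile normalization (adjusted p = 0.103).

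Both libraries of a heart share its number, and a paired fit, with hearts as the replicate block, called 4 of the 8 genes, against 18.6% of all genes (9.92% higher and 8.65% lower in knockout). It added Lpl and Slc27a1, both lower in knockout. Fabp3 and Fabp3-ps1 passed in both fits, with an adjusted p of 2.67e-05 and 0.000363 with the block (limma). Single hearts were left out only in the fit without the block. Lpl had ratios of 4.34, 4.32, 3.94, 4.37 and 3.71 in knockout hearts, against 5.22, 5.92, 4.84 and 4.65 in wild-type hearts. The groups did not overlap, and the log2 fold change of -0.32 had an adjusted p of 0.0885 without the block and 0.0412 with it (limma). Slc27a1 had ratios of 1.17, 1.34, 1.57, 1.67 and 1.24 in knockout hearts, against 1.91, 1.48, 2.12 and 2.10 in wild-type hearts. Only wild-type heart 2 reached into the knockout range, and the log2 fold change of -0.44 had an adjusted p of 0.33 without the block and 0.0377 with it (limma). For Cd36, Gpihbp1, Fabp4 and Acsl1 the log2 fold changes lay between -0.11 and 0.14 and passed in neither fit. In the authors' deposited table the efficiency of Fabp3, Fabp3-ps1 and Lpl carries the tag "buffered", which that table gives to 15.2% of its genes, and that of the other 5 genes "unchanged".

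**Figure D3:**
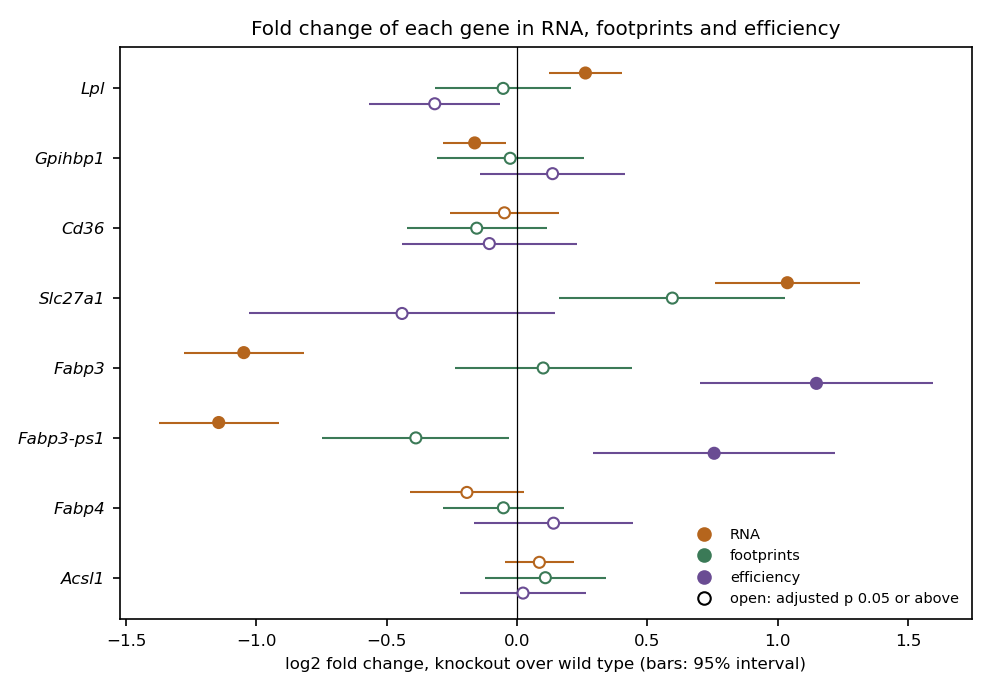
Log2 fold change, knockout over wild type, of each gene in RNA, footprints and efficiency, with bars for the 95% interval; filled points had a limma adjusted p below 0.05 in the fit without a term for the heart. RNA points spread from -1.14 (Fabp3-ps1) to 1.04 (Slc27a1), while the footprint points are all open and those of efficiency lie on the other side of 0 from RNA for the genes called in RNA.

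Genes of the wider pathway passed in RNA about as often as all genes did. Of 52 further genes of fatty acid uptake, storage and mitochondrial entry 50 were tested, with Slc27a3 and Slc27a6 not among the listed genes. In RNA 21 rose, 7 fell and 22 did not pass, or 56.0% called against 49.4% of all genes, with a median log2 fold change of 0.18 against 0.01 over all genes. The share called in either direction lies near the background. The split of 21 rises and 7 falls was less even than among all genes, of which 24.3% were higher and 25.1% lower. This split was not tested. In footprints limma, edgeR and DESeq2 called 0 of the 50, where limma called 0.02% of all genes. At an unadjusted p below 0.05 there were 6 of 50 with limma, 7 of 50 with edgeR and 7 of 50 with DESeq2. With limma that is a higher share than the 505 of 9976 genes, or 5.06%. For edgeR and DESeq2 no share of all genes is given. The limma count was unsteady. It was 4 with no mean-variance trend, 4 without wild-type heart 2 or knockout heart 8, and 13 without knockout heart 10. The median footprint log2 fold change of the 50 was 0.04.

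Among 5 genes around the lipase in the capillary lumen, RNA of Lmf1, the factor that matures lipases in the endoplasmic reticulum, rose by 0.39 ± 0.08 (SE; adjusted p = 0.00206 by limma). Sel1l, a partner in that maturation, fell by 0.31 ± 0.08 (SE; adjusted p = 0.00928 by limma). The other 3 did not pass, so 40% of the 5 were called, against 49.4% of all genes. The lipase inhibitor Angptl4 was at -0.24 ± 0.86 (SE), with a wide error, and the receptor Vldlr at -0.07 ± 0.07 (SE).

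Of 10 transport and binding genes 5 rose, 1 fell and 4 did not pass in RNA, where 24.3% of all genes were higher and 25.1% lower. Got2, an aminotransferase also described as a fatty acid binding protein of the plasma membrane, rose by 0.41 ± 0.05 (SE; adjusted p = 7.3e-05 by limma), and Cavin1, a coat protein of caveolae, by 0.36 ± 0.06 (SE; adjusted p = 0.000292 by limma). Acbd5, a peroxisomal acyl-CoA binding protein, fell by 0.24. It lost its call without wild-type heart 1 or 4 or knockout heart 7, 8 or 10 (adjusted p from 0.0546 to 0.0946). Of the 4 other acyl-CoA synthetases, Acsl4 fell by 0.37 and Acsl3 by 0.55, while Acsl5 and Acsl6 did not pass. Thus 50% of these synthetases were called, beside 49.4% of all genes. Acsl3 lost its call without wild-type heart 2 or 4 or knockout heart 9 or 10 (adjusted p from 0.0503 to 0.0797).

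Triglyceride storage and release held 14 genes, of which 7 rose, 1 fell and 6 did not pass in RNA, where 24.3% of all genes were higher and 25.1% lower. Plin5, a lipid droplet coat protein of oxidative muscle, rose by 0.77 ± 0.10 (SE; adjusted p = 9.51e-05 by limma), and the monoglyceride lipase Mgll by 0.57 ± 0.10 (SE; adjusted p = 0.000623 by limma). Pnpla2, the adipose triglyceride lipase, fell by 0.18, and did not pass with quantile normalization (-0.07, adjusted p = 0.281). Footprints of Plin5 and Mgll were at -0.07 ± 0.15 and -0.04 ± 0.11 (SE). Among 6 genes of carnitine entry into mitochondria 5 rose in RNA, beside 24.3% of all genes, and Cpt1a did not pass. Cpt1b, the muscle carnitine palmitoyltransferase, rose by 0.52 ± 0.06 (SE; adjusted p = 3.5e-05 by limma), and Mlycd, which removes the CPT1 inhibitor malonyl-CoA, by 0.63 ± 0.10 (SE; adjusted p = 0.000371 by limma).

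Regulators went both ways. Of 11, 3 rose, 2 fell and 6 did not pass in RNA. That share of 45.5% called lies near the 49.4% of all genes, of which 24.3% were higher and 25.1% lower. The nuclear receptors Esrra and Ppara rose by 0.38 ± 0.06 and 0.58 ± 0.15 (SE; adjusted p = 0.000232 and 0.00711 by limma), while their coactivator Ppargc1a fell by 0.70 ± 0.06 (SE; adjusted p = 5.45e-06 by limma). Meox2, an endothelial factor that in mouse heart acts with Tcf15 on fatty acid uptake genes, had 284, 319, 229, 253 and 181 normalized RNA reads in knockout hearts, against 548, 619, 614 and 488 in wild-type hearts. Its RNA fell by 1.18 ± 0.15 (SE; adjusted p = 4.81e-05 by limma), with all knockout hearts below all wild-type hearts. Its footprints were 342, 278, 444, 271 and 281 in knockout hearts, against 207, 169, 274 and 191 in wild-type hearts, a log2 fold change of 0.61 ± 0.22 (SE; adjusted p = 0.851 by limma), so the footprint values leaned the other way without passing. Tcf15 did not pass in RNA (0.22 ± 0.13, SE) or in footprints.

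Efficiency passed for 10 of the 50 pathway genes, 2 higher and 8 lower, or 20.0% against 14.4% of all genes. Over all genes 7.83% were higher and 6.55% lower. With hearts as the replicate block 13 of the 50 passed, against 18.6% of all genes. The rises were Meox2 at 1.80 ± 0.26 and Ppargc1a at 0.80 ± 0.13 (SE; adjusted p = 0.000132 and 0.000502 by limma). Named falls were Ppard at -1.10, Plin5 at -0.84, Mgll at -0.61, Slc27a4, the FATP4 transporter, at -0.56, Cpt1b at -0.44 and Esrra at -0.43 (limma adjusted p from 0.00272 to 0.0376). Esrra lost its call without wild-type heart 1, 2 or 4 or knockout heart 6, 9 or 10 (adjusted p from 0.0553 to 0.104) and with no mean-variance trend (adjusted p = 0.0509). Each of these 8 genes went the other way in RNA, which enters the same test.

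**Figure D4:**
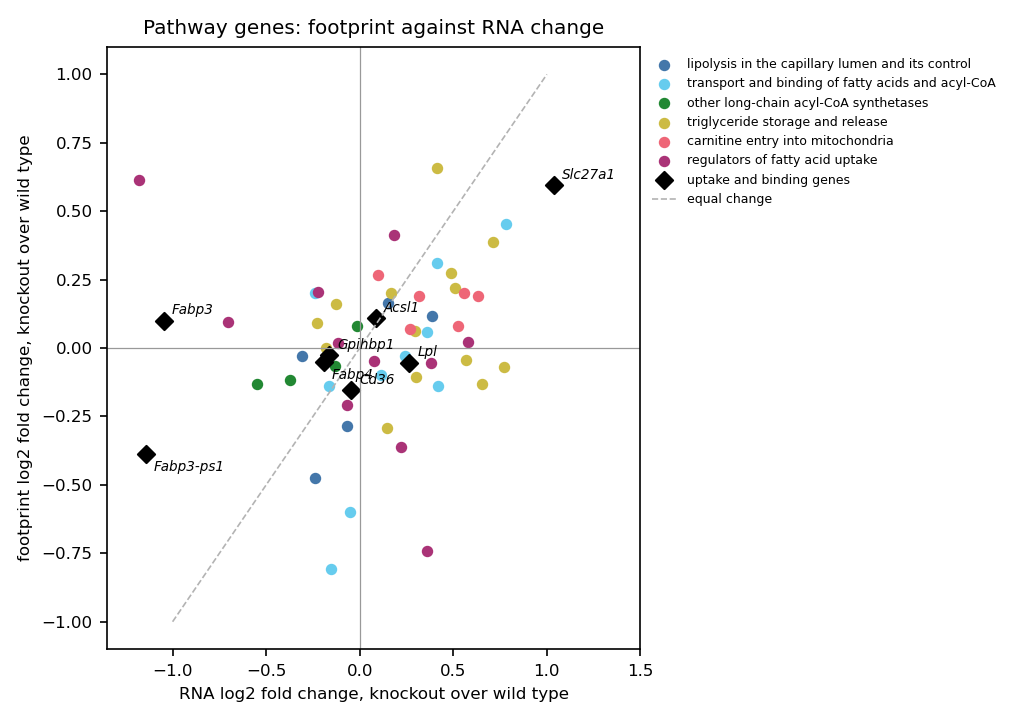
Footprint against RNA log2 fold change, knockout over wild type, for the 50 tested pathway genes (circles, coloured by list) and the 8 uptake and binding genes (black diamonds), with a dashed line where both changes are equal. RNA changes spread over a wider range than footprint changes, and Fabp3 and Slc27a1 sit far from 0 in RNA at 0.10 and 0.60 in footprints.

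Profiles were compared over all 18 libraries by the root mean square difference of log2 values, each centred on its wild-type mean within an assay, among 9974 genes. Nearest to Lpl were Psap, for a lysosomal lipid activator protein, and Pex19, at 0.06 each. Nearest to Acsl1 were Psmd7 and Hsd17b10 (0.09 each). Fabp4 lay nearest to Kdr, the endothelial VEGF receptor, at 0.11 and to Sp3 at 0.12, and Cd36 nearest to Ctsa and Arhgap29 (0.12 each). Fabp3 lay nearest to Sfr1 (0.14) and Ssbp1 (0.16), and Fabp3-ps1 to Sfr1 (0.26) and the complex I subunit Ndufa1 (0.27). Slc27a1 lay nearest to Carns1 (0.22) and Mocs1 (0.23).

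Markers of other cell types were summed over their lists beside these values. Of 4 atrial markers, Myl7, Myl4 and Nppa were listed. In RNA 2 of these 3 were lower in knockout, where 25.1% of all genes were lower. The summed RNA of the 3 was 5257 to 8852 normalized reads in knockout hearts and 15049 to 16771 in wild-type hearts. These sums did not overlap, a separation that 40.7% of single genes shared in RNA. Footprints of the 3 summed to 7153 to 22525 in knockout hearts and 10923 to 40325 in wild-type hearts, which overlapped. None of the 3 passed in footprints, and their median footprint log2 fold change was 0.25. The sums of 8 cardiomyocyte markers were 1566583 to 1776995 in knockout RNA and 1755201 to 2050644 in wild-type RNA. Of the 8, 1 was higher and 4 lower, where 24.3% of all genes were higher and 25.1% lower. RNA sums of fibroblast, smooth muscle and pericyte, and erythrocyte markers overlapped between genotypes, with median log2 fold changes of 0.07, 0.23 and 0.16. In RNA 1 of 7 fibroblast and 1 of 5 erythrocyte markers were higher in knockout and 0 lower. Of 6 smooth muscle and pericyte markers 3 were higher and 1 lower, beside the same shares of all genes. Macrophage markers, of which 8 of 10 were listed, summed to 4293 to 5923 in knockout RNA and 4802 to 5335 in wild-type RNA. Of these 8 markers 2 were higher and 1 lower in RNA. Their footprints summed to 22659 to 32864 in knockout hearts and 29076 to 53278 in wild-type hearts, which overlapped, and none of the 8 passed in footprints. The part of these markers in the differences above was not tested.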

How the data were processed

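The submitters' processing notes name STAR 2.7.1a, HTSeq, DESeq2 and GRCm38 (mm10), with no role or order given. TRIzol extraction and kits of the TruSeq RNA (v2, which keeps no strand) and NEXTflex small RNA (v3) series are given in the labels' protocols. The authors deposited a normalized read signal per gene and library, a ratio of footprint to RNA signal per heart, and a log2 fold change with a p-value per gene. The deposited efficiency fold change runs wild type over knockout; fold changes in the text come from the fits below, knockout over wild type, except where the authors' deposited table is credited. Raw counts were not given, so limma 3.58.1 (R 4.3.3) was fitted on log2(value + 1) with a mean-variance trend for genes with a mean of at least 10, which understates changes of low genes; efficiency was the genotype by assay interaction over 18 libraries. Footprint values were whole multiples of 1 step within 0.01 reads for 100% of values, and edgeR 4.0.16 and DESeq2 1.42.0 were run on those reads. Fits were tested on simulated data.

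Per the labels, a number marks 1 heart in both assays. Over 3233 genes the correlation of deviations from the genotype mean was 0.277 to 0.662 within hearts, with a median of -0.0992 between hearts. Removing that mean by itself pulls correlations between hearts of a genotype below 0. RNA of 7 of 9 hearts matched its own footprints best. Of the identifiers, 10560 matched a symbol; coordinates are RefSeq's. The members, lists and tests were chosen with earlier results of these data known. The text names all 8 members, Nbdy, Meox2, Tcf15 and, per list and comparison, up to 2 pathway genes per direction with the smallest adjusted p below 0.05; Angptl4, Vldlr, Acsl5, Acsl6, Cpt1a and Zcchc17 are named beyond that rule, after their values were seen. Alternatives changed the pseudocount, the filter, the scaling, the trend, the treatment of the Fabp3 pair and the hearts included. The profiles nearest to Gpihbp1 are not reported here.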

Additional observations from a re-analysis of the deposited data

Results flagged for a closer look

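Among 48 groups of hearts looked at (8 genes, 3 measures, 2 genotypes), 2 had a heart far from the rest by Dixon's criterion, about the number that chance gives at 1 in 20. Knockout heart 9 had a Fabp3 efficiency of 0.422, above 0.313 to 0.338 in the other knockout hearts. Wild-type heart 3 had a Gpihbp1 efficiency of 1.24, above 1.06 to 1.08 in the other wild-type hearts.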

How the results depend on the processing

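The count of RNA calls among the 8 genes was 4 or 5 under all alternatives run, and that of footprint calls 0. Efficiency calls numbered 4 with hearts as a replicate block, in place of 2, 3 in the authors' deposited table, and 1 to 2 when single hearts were left out. With the pair as 1 row, 1 of 7 passed when summed and 0 of 7 with Fabp3-ps1 subtracted; the cause was not tested. The block changed no other call of the 8 genes. Over all genes, footprint calls numbered 0 with no filter on low values, 0 with a minimum mean of 100, 6 in the authors' deposited table, 6 with DESeq2 and 0 to 3 without single hearts, in place of 2. Directions of the called results of the 8 genes held under the alternatives run, except for Fabp3 with Fabp3-ps1 subtracted. That setting, added after seeing the data, turned to 0.77 in RNA and -0.56 in efficiency. Its efficiency value compares unlike shares of the Fabp3 footprint and RNA rows, as stated above. Lpl efficiency passed with quantile normalization (-0.56, adjusted p = 0.0022) and in the authors' deposited table (adjusted p = 0.0209). No scaling moved the median log2 fold change of all genes by over 0.1. Each scaling centres most genes, so this median says nothing of single genes. With quantile normalization Lpl RNA went from 0.26 to 0.45 and Fabp3-ps1 RNA from -1.14 to -0.93. The planned edgeR and DESeq2 tests on RNA reads were not run, although 100% of RNA values were also whole multiples of 1 step. Footprint depth was lowest for Gpihbp1 and Slc27a1, at 378 and 487 reads in wild-type heart 2.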
